A study of Homo sapiens with 4 samples.

Results

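The cells described here were those of the SIRT1 knockout library at day 6 in which LMX1A, a LIM homeodomain transcription factor gene, was detected. They were chosen by that readout alone: a barcode with at least 4000 UMIs, at least 1000 genes and at most 20% mitochondrially encoded UMIs was a cell, and a cell with at least 1 LMX1A UMI was a member. The unit of count was the unique molecular identifier (UMI), a tag that lets copies of 1 RNA molecule be counted only once. The rule found 145 LMX1A-positive cells among the 4419 cells of the library and the 22599 cells of the series. Of these, 130 cells held 1 LMX1A UMI, 14 held 2 and 1 held 4.

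The study profiled H9 (WA09), a human embryonic stem cell line, by droplet sequencing of transcript 3′ ends at day 0 and day 6 of a protocol towards dopaminergic neurons. At each day there was 1 library with a Sirtuin 1 deletion and 1 wild-type library, so no difference has a replicate check and no test was possible. SIRT1 is an NAD-dependent protein deacetylase. Whether the knockout line is 1 clone, where its deletion lies and whether the cultures were handled in parallel are not given in the sources used here. Knockout and wild-type libraries held 7275 and 5533 cells at day 0 and 4419 and 5372 cells at day 6. The median cell held 13169 UMIs in the knockout and 8590 UMIs in the wild type at day 6. SIRT1 stood at 9.95 counts per 1000000 UMIs (CPM) in the knockout and 30.2 CPM in the wild type at day 6, a level 3.04-fold lower in the knockout. Such a 3′ count checks the label only if it falls in the deleted part, whose position is unknown here. The day 6 libraries shared 5 cell barcodes, and no pair of libraries shared more than 18.

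In vertebrate embryos LMX1A is expressed in the roof plate and in the floor plate of the midbrain. In the ventral midbrain it acts with LMX1B, MSX1, OTX2, EN1 and the forkhead factor FOXA2 to set up the progenitors of dopaminergic neurons, and FOXA2 is itself a defining gene of the floor plate. Sonic hedgehog from the ventral midline and WNT1 from the midbrain border are the classical inducers of this programme, while SIX3, SIX6 and HESX1 mark anterior forebrain and eye field, and GBX2 marks tissue behind the midbrain.

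LMX1A was rare in each day 6 library, and more cells held it in the knockout library. It was found in 145 of 4419 knockout cells (3.28%, 95% interval 2.78% to 3.85%) and in 29 of 5372 wild-type cells (0.540%, 0.362% to 0.774%), which held 1 UMI each. After every cell was thinned to 4000 UMIs it was found in 58 knockout cells (1.31%, 0.998% to 1.69%) and in 16 wild-type cells (0.298%, 0.170% to 0.483%). Summed over cells, LMX1A stood at 2.48 CPM (2.11 to 2.89) in the knockout and 0.564 CPM (0.378 to 0.810) in the wild type, a ratio of 4.40 (2.95 to 6.77). All intervals here are exact, at the 95% level, cover counting error only and compare libraries or sets of cells, not conditions.

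Day 0 cells, which should lack the gene, gave the background. Among knockout cells at day 0, with a median of 8367 UMIs, 1 of 7275 held LMX1A and none did after thinning, which allows a share of up to 0.0412% by a floor of 3 counts (exact upper limit 0.0507%). Among wild-type cells at day 0, with a median of 12645 UMIs, 3 of 5533 held it and 1 did after thinning (0.0181%). Free RNA, read from barcodes with 1 to 50 UMIs, held 5 LMX1A UMIs in the knockout and 2 in the wild type at day 6. If free RNA made up 10% of a cell's UMIs it would give LMX1A to 0.101% of thinned knockout cells and 0.0467% of thinned wild-type cells. Each day 6 share was above the day 0 shares and above its own free RNA value, which scales with the assumed 10%. LMX1A stood at 2.51 CPM in free RNA and 2.48 CPM in cells of the knockout at day 6. In the wild type it stood at 1.17 CPM in free RNA and 0.564 CPM in cells. The free RNA levels rest on 5 and 2 UMIs, and the part of free RNA in the LMX1A calls was not tested.

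**Figure D1:**
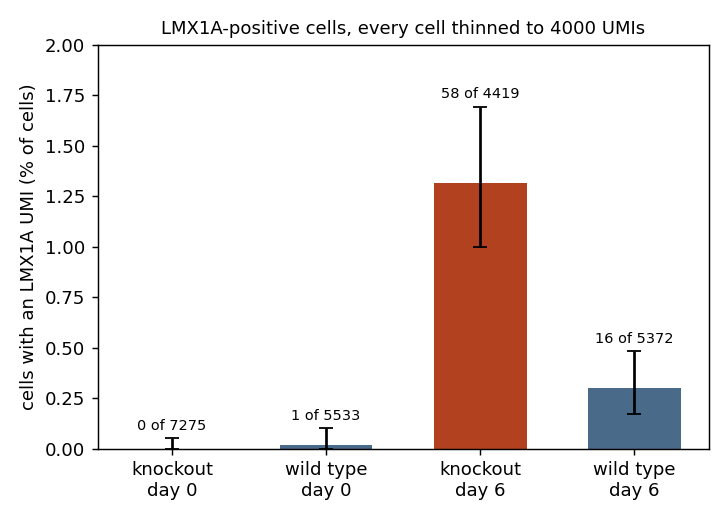
Share of cells with an LMX1A UMI in the 4 libraries, every cell thinned to 4000 UMIs; bars give the percent of cells, lines the exact 95% binomial interval and labels the counts of cells. The knockout library at day 6 stood at 1.31%, the wild-type library at day 6 at 0.298%, and the day 0 libraries at 0 and 0.0181%.

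The share also moved with depth, not in the same direction in the libraries. In 4 equal groups of knockout cells ordered from few to many UMIs, 2.71%, 2.99%, 3.17% and 4.25% held LMX1A, and after thinning 1.63%, 1.18%, 1.18% and 1.27% did. The intervals of the first and last groups overlapped (1.84% to 3.85% and 3.14% to 5.62%). In the wild type the groups stood at 0.819%, 0.447%, 0.670% and 0.223%, from 11, 6, 9 and 3 positive cells. Thinning left an LMX1A UMI in 58 of the 145 positive knockout cells, so a cell without one may still carry the transcript. For that reason the 145 LMX1A-positive cells were set against 145 other knockout cells with the nearest totals. The positive cells had a median of 14720 UMIs and 4019 genes, and the matched cells 14716 UMIs and 3975 genes. Mitochondrially encoded genes held a median of 1.74% of UMIs in the positive cells and 1.60% in the matched cells. No doublet caller was run, and 16 cells of each set lay in the top 5% of the library's totals.

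LMX1A lies on chromosome 1 (GRCh38, 165201867 to 165356715, minus strand), and OTX2, a homeodomain gene of the forebrain and midbrain that was high in the positive cells, on chromosome 14 (56799905 to 56810479, minus strand). The 250 bases before the RefSeq start of each (GRCh38.p14, chr1:165356716-165356965 and chr14:56810480-56810729, minus strand, 5′ to 3′) are shown because LMX1A defined the cells and OTX2 is a gene of the same programme that was higher in them. FOXA2, EN1 and SIX3 are named only.
LMX1A: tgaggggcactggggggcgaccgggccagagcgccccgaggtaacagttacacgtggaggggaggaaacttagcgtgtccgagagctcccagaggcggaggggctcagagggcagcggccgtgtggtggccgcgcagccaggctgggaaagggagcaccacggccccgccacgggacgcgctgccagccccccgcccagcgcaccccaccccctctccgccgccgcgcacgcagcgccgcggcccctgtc
OTX2: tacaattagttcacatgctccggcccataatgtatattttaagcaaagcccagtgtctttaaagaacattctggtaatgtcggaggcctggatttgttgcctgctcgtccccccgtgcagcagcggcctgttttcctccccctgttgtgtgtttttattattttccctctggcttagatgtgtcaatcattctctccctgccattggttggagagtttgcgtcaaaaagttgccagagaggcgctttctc
Neither window held TAATTA, the core letters of many homeodomain sites, TAATCC, those of OTX sites, or TGTTTAC, those of forkhead sites, on either strand. For that reason no letters are marked in capitals. The motifs occurred in 4.37%, 5.61% and 2.98% of 34788 RefSeq promoter windows, in that order, and their absence here says nothing about the factors. Each gene had 2 RefSeq entries, and the window before the most upstream start was used.

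The label of LMX1A-positive progenitors was checked against marker genes. SOX2, a neural progenitor and stem cell factor, was found in 144 of the 145 positive cells and 142 of the matched cells. FOXA2 was found in 126 positive cells (86.9%, 80.3% to 91.9%) and 71 matched cells (49.0%, 40.6% to 57.4%). After thinning these shares were 58.6% and 24.1%, while FOXA2 was found in 0.179% of knockout and 1.41% of wild-type cells at day 0, and free RNA would give 3.67%. Of the other genes of the dopaminergic programme, OTX2 was found in 48 positive cells (33.1%) and 18 matched cells (12.4%) and EN1 in 37 (25.5%) and 5 (3.45%), while LMX1B, SHH, MSX1 and WNT1 were nearly absent. LMX1B, the paralog of LMX1A, had 5 UMIs in the positive cells and 0 in the matched cells, SHH had 4 and 3, MSX1 had 2 and 2, and WNT1 had 0 and 1. The neuron gene STMN2 was found in 2 positive cells and 1 matched cell, and SOX17 (endoderm) and TBXT (mesoderm) in none of either. The cells are therefore best described by their leading genes, as SOX2-positive and mostly FOXA2-positive cells with an LMX1A UMI.

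**Figure D2:**
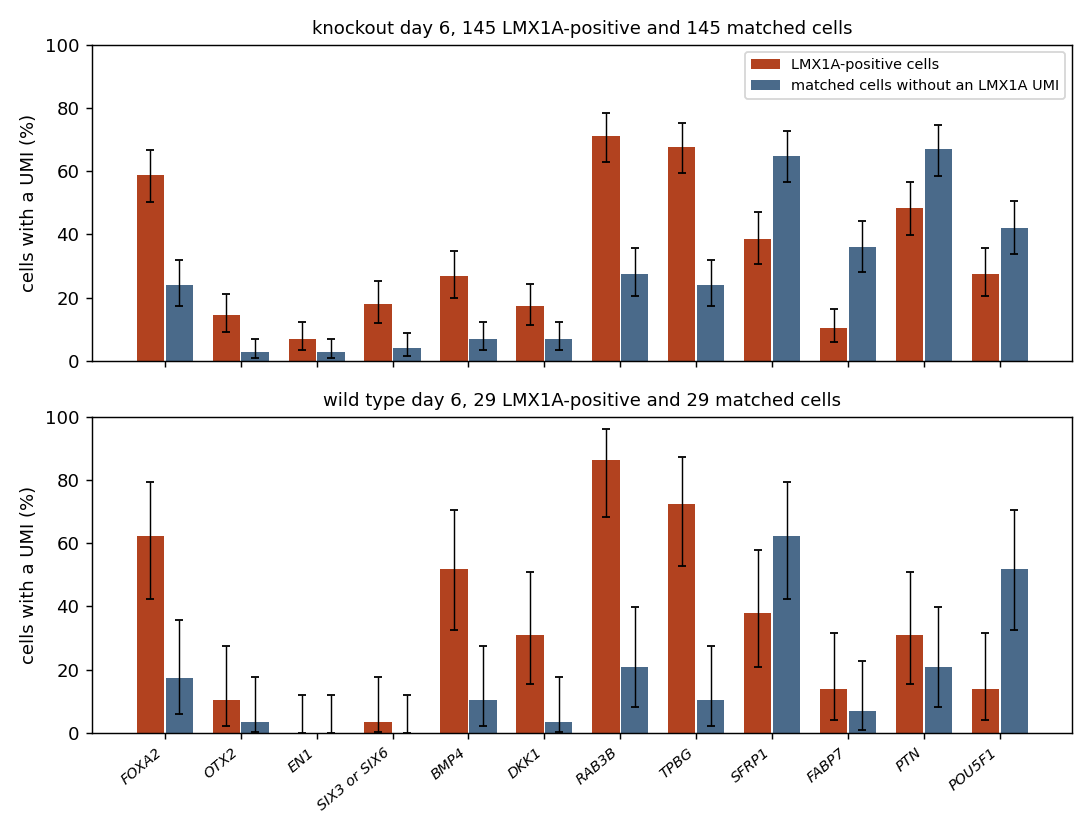
Percent of cells with a UMI of 12 genes after thinning to 4000 UMIs, in LMX1A-positive cells and in matched cells without an LMX1A UMI, for the knockout (145 and 145 cells) and the wild type (29 and 29 cells) at day 6; lines are exact 95% binomial intervals. In the knockout FOXA2 stood at 58.6% and 24.1%, and FABP7 at 10.3% and 35.9%.

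Over all genes the positive and the matched cells were close. Of 8925 genes measured, meaning at 10 CPM or more in the sum of either set, 159 (1.78%) were at least 2-fold higher in the positive cells and 101 (1.13%) at least 2-fold lower. At 1.5-fold, the limit used for gene lists, 672 genes (7.53%) were higher and 429 (4.81%) lower, and the median log2 ratio was 0.02. These counts come from sums over 145 cells, and weighting all 4274 other cells to the same totals left 85 and 51 genes past 2-fold.

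Floor plate genes were higher. All 4 measured genes of the floor plate list passed 1.5-fold upwards and none downwards, at 495 CPM summed over the list in the positive cells and 231 CPM in the matched cells. FOXA2 had 245 CPM in the positive cells and 85.5 CPM in the matched cells, a ratio of 2.86 (2.44 to 3.37). In the single cell at the median, FOXA2 stood at 217 CPM in the positive cells, with quartiles of 101 and 340 CPM, and at 0 in the matched cells, with quartiles of 0 and 114 CPM, so the ranges between the quartiles overlapped only from 101 to 114 CPM. FOXA1, the paralog of FOXA2, had 26 UMIs in the positive cells and 3 in the matched cells, a ratio of 8.67 (2.66 to 44.7). SLIT2, a midline guidance cue, and LRIG3, a membrane protein, had ratios of 1.53 (1.29 to 1.81) and 1.92 (1.46 to 2.53). FERD3L and NKX2-2 were at 0 in both sets.

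LMX1A was in turn more often found in cells with FOXA2. Among thinned knockout cells, LMX1A was found in 39 of 1192 cells with a FOXA2 UMI (3.27%, 2.34% to 4.45%) and in 19 of 3227 cells without one (0.589%, 0.355% to 0.918%). In the wild type it was found in 11 of 1433 cells with FOXA2 (0.768%, 0.384% to 1.37%) and in 5 of 3939 without (0.127%, 0.0412% to 0.296%). FOXA2 itself stood at nearly the same level in the libraries, at 101 CPM in the knockout and 91.4 CPM in the wild type, a ratio of 1.11 (1.07 to 1.15). Whether the number of LMX1A-positive cells follows FOXA2 was not tested. FOXA2 lies on chromosome 20, and the libraries differed in the share of UMIs from that chromosome, as described below.

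Genes of both the anterior forebrain and the midbrain were higher in the positive cells, and each was found in a minority of them. OTX2 had 46.7 CPM in the positive cells and 13.2 CPM in the matched cells, a ratio of 3.53 (2.37 to 5.40), and was found in 48 and 18 cells. EN1, a homeodomain gene of the midbrain and isthmus, had 65 UMIs in the positive cells and 6 in the matched cells, a ratio of 10.8 (4.72 to 30.6). Against all other cells, weighted to the same totals, the EN1 ratio was 3.16. SIX3 and SIX6, homeodomain genes of the forebrain and eye field, had 95 and 102 UMIs in the positive cells and 9 and 13 in the matched cells, with ratios of 10.6 (5.33 to 23.8) and 7.85 (4.39 to 15.2). Against all other cells these were 4.84 and 3.34, and 1 cell held 22.1% of the SIX3 UMIs of the positive cells. HESX1, a further anterior gene, had a ratio of 2.37 (1.36 to 4.29).

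All 3 measured genes of the anterior forebrain list passed 1.5-fold upwards. In the midbrain and isthmus list 3 of 6 did (EN1, OTX2 and SPRY1), in the dopaminergic progenitor list 3 of 3 (OTX2, EN1 and FOXA2), and in the hindbrain list 2 of 3 passed downwards, IRX1 at 1.96-fold and MEIS2 at 2.31-fold lower. SPRY1, a feedback inhibitor of fibroblast growth factor signalling, had a ratio of 1.55 with matched cells and 1.18 against all other cells. GBX2 had 65 UMIs in the positive cells and 89 in the matched cells, 1.37-fold lower with an interval of 0.983 to 1.92 that included 1.

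**Figure D3:**
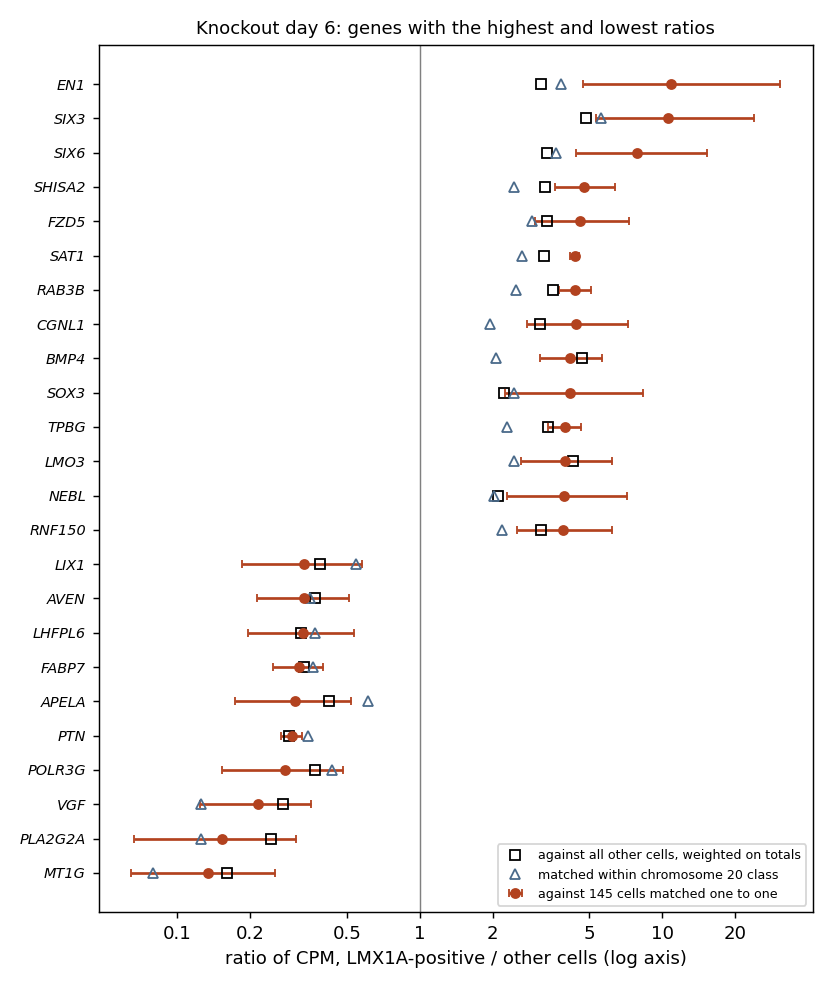
Ratio of CPM in LMX1A-positive cells to other cells of the knockout library at day 6, for 14 of the 15 highest ratios and the 10 lowest among genes at 20 CPM or more; points with 95% intervals use 145 matched cells, squares all other cells weighted on totals, and triangles cells matched within class of chromosome 20 share. EN1 had the highest ratio, 10.8 with matched cells and 3.16 with all other cells, and MT1G the lowest, 7.46-fold lower with matched cells.

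Several genes of BMP and WNT signalling differed between the sets. BMP4, a ligand expressed by roof plate and anterior midline tissue, had 99.99 CPM in the positive cells and 24.0 CPM in the matched cells, a ratio of 4.17 (3.12 to 5.66), and was found in 81 and 21 cells. BMP2 had a ratio of 2.83 (1.63 to 5.15) and CHRD, an extracellular BMP antagonist, 2.94 (1.67 to 5.44), while BMP7 was 1.53-fold and ID2, a transcriptional target of BMP signalling, 2.15-fold lower. In all, 3 of 12 measured genes of the BMP list were higher and 2 lower. The roof plate list had BMP4 higher and BMP7, ZIC2 and ZIC5 lower, of 5 measured, so the ligand BMP4 and the ZIC factors differed in direction.

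In the WNT list 4 of 13 measured genes were higher and 2 lower. The receptors FZD5, FZD2 and FZD7 had ratios of 4.58 (2.97 to 7.29), 1.81 (1.56 to 2.11) and 1.69 (1.46 to 1.97), and DKK1, a secreted inhibitor, had 84.7 CPM in the positive cells and 24.8 CPM in the matched cells, a ratio of 3.42 (2.55 to 4.63). The secreted frizzled-related inhibitors went the other way. SFRP1 had 133 CPM in the positive cells and 317 CPM in the matched cells, 2.39-fold lower (2.09 to 2.73), and SFRP2 was 1.55-fold lower. SHISA2, which in Xenopus restrains WNT and fibroblast growth factor receptors, had 122 CPM in the positive cells and 25.6 CPM in the matched cells, a ratio of 4.76 (3.61 to 6.36). In the hedgehog list 1 of 6 measured genes was higher, SUFU, an intracellular inhibitor of the pathway, with 29 and 19 UMIs and an interval that included 1. The Notch list had 3 of 10 higher (HEY1, NOTCH2 and LFNG), the fibroblast growth factor list 1 of 12 higher (SPRY1) and 1 lower (SPRED1), and the retinoid list RXRA higher and CRABP1 1.93-fold lower (1.81 to 2.06), of 5.

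The other genes with the highest ratios had broader functions. SAT1, the spermidine and spermine acetyltransferase that is rate-limiting for polyamine breakdown, had 5121 CPM in the positive cells and 1176 CPM in the matched cells, a ratio of 4.35 (4.18 to 4.54). In all 4274 other cells, not matched on totals, SAT1 was higher than in the matched cells, at 1646 CPM. The median positive cell held 4134 CPM of SAT1, with quartiles of 1971 and 7994 CPM, and the median matched cell 474 CPM, with quartiles of 214 and 1519 CPM, so these ranges did not overlap. RAB3B, a GTPase of regulated secretion, had 407 CPM in the positive cells and 93.4 CPM in the matched cells, a ratio of 4.36 (3.77 to 5.06). TPBG, a membrane glycoprotein also known as 5T4, had 330 CPM in the positive cells and 83.5 CPM in the matched cells, a ratio of 3.95 (3.39 to 4.64).

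**Figure D4:**
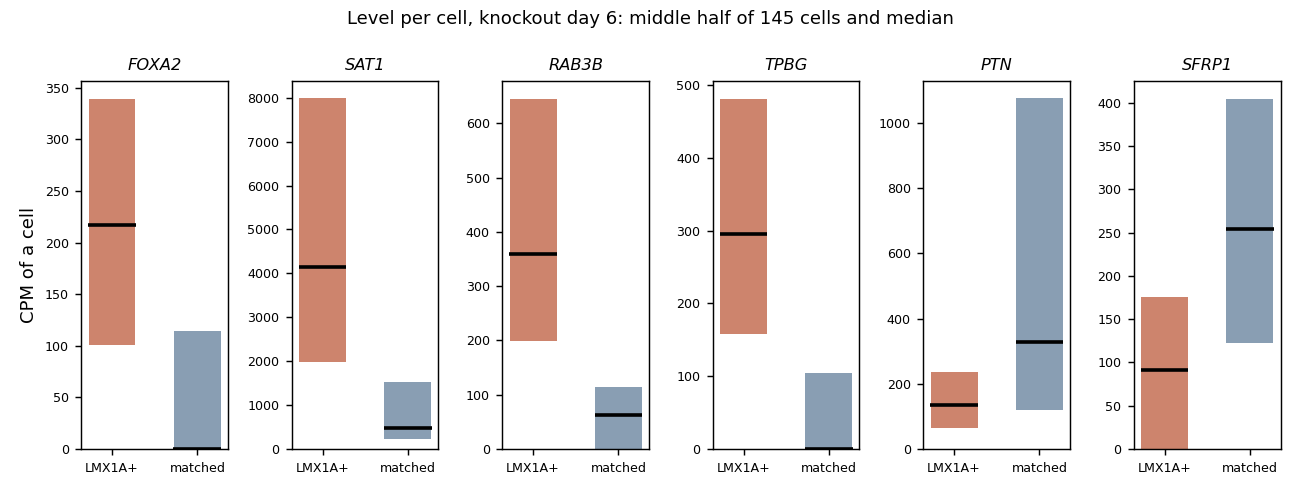
Level per cell of 6 genes in 145 LMX1A-positive and 145 matched cells of the knockout library at day 6; boxes run from the lower to the upper quartile of CPM in a cell and black lines are medians. The median of SAT1 was 4134 CPM in the positive cells and 474 CPM in the matched cells, and that of PTN 134 and 328 CPM.

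RAB3B was found in 139 positive and 93 matched cells and TPBG in 130 and 72. Others of the 15 highest were CGNL1, which encodes a junction protein (ratio 4.39), SOX3, a neural progenitor factor (4.15), LMO3, a LIM-only cofactor (3.96), NEBL, an actin-binding protein (3.94) and RNF150, a RING finger gene (3.89). Against all other cells their ratios ran from 2.11 for NEBL to 4.30 for LMO3.

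The lowest ratios included PTN and FABP7, genes of early neural progenitors. PTN, the growth factor pleiotrophin, had 216 CPM in the positive cells and 729 CPM in the matched cells, 3.38-fold lower (3.06 to 3.73), although it was found in 124 and 123 cells. FABP7, a fatty acid carrier of radial glia, had 39.7 CPM in the positive cells and 125 CPM in the matched cells, 3.16-fold lower (2.50 to 4.01), and was found in 55 positive and 89 matched cells. SOX2, by contrast, had 589 CPM in the positive cells and 456 CPM in the matched cells, a ratio of 1.29 (1.19 to 1.40), below the list limit. Of 12 measured genes of the neural progenitor list, SOX3 was higher and PTN and FABP7 lower. Of the neuron list, at 121 CPM summed in the positive cells and 159 CPM in the matched cells, 1 of 4 was lower (NEFM).

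The others of the 10 lowest were MT1G, a metallothionein (11 UMIs in the positive and 82 in the matched cells), PLA2G2A, a secreted phospholipase (9 and 59), VGF, a neuropeptide precursor (19 and 88), POLR3G, an RNA polymerase III subunit of pluripotent cells (17 and 61), APELA, a peptide ligand of stem cells (19 and 62), LHFPL6 (23 and 70), AVEN, an inhibitor of apoptosis (30 and 90), and LIX1 (18 and 54). These ratios rest on few UMIs. Genes of pluripotency were lower in part. POU5F1, its central factor, had 136 CPM in the positive cells and 231 CPM in the matched cells, 1.71-fold lower (1.49 to 1.96), yet it was found in 82 and 88 cells. NANOG was 3.21-fold (1.73 to 6.34), PODXL 2.09-fold and L1TD1 1.53-fold lower, and SALL4 had a ratio of 1.60, which was 1.40 against all other cells. Against matched cells that is 1 higher and 4 lower of 12 measured. In all 4274 other cells, not matched on totals, POU5F1 stood at 184 CPM. LMX1A was found in 3.02% of 1987 cells with POU5F1 and 3.17% of 1987 cells without it, matched on totals.

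Cell cycle genes stood near the matched cells. In the list of G2 and M phase genes 1 of 25, AURKA, passed 1.5-fold upwards, at 4374 CPM summed over the list in the positive cells and 3945 CPM in the matched cells, and of 23 S phase genes 1, E2F1, was lower. Of 17 measured p53 target genes none was higher and 3 were lower, GADD45A at 1.89-fold, GDF15 at 1.53-fold and ZMAT3 at 1.5-fold. CDKN1A, the cell cycle inhibitor of that pathway, was found in 60 cells of each set. SIRT1 had 25 UMIs in the positive cells and 24 in the matched cells, and neither of 2 measured sirtuins passed the limit.

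Among lists of other cell types, the surface ectoderm list had 2 of 5 higher (KRT19 and EPCAM), the mesoderm list none of 2, and the endoderm list FOXA1 higher and CXCR4 lower, of 2, with SOX17, GATA4, GATA6, HHEX, CER1 and TTR at 0 in both sets. SOX10, a neural crest factor, was found in 1 cell of each set. The choroid plexus list had only OTX2 measured, and it was higher. Neither of 2 measured genes of the subthalamic and diencephalic list and none of 17 genes of hypoxia and glycolysis passed the limit. In the matrix and adhesion list COL2A1, ITGA5 and NCAM1 were higher and CDH6 lower, of 18.

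The knockout library held cells that differed in the share of their UMIs from chromosome 20, and the LMX1A-positive cells were unevenly spread over them. With ribosomal protein and mitochondrially encoded genes left out, 78 of the 145 positive cells (53.8%, 45.3% to 62.1%) had a share of at least 3%, against 29 of the matched cells (20%, 13.8% to 27.4%). A share below 2.6% was found in 47 positive and 102 matched cells. Thinned LMX1A shares in the knockout were 3.32% of high, 1.23% of middle and 0.562% of low cells. In the wild type, where 72.4% of the LMX1A-positive cells and 70.2% of all other cells were high, they were 0.318%, 0.301% and 0. FOXA2 lies on chromosome 20 (GRCh38, 22581005 to 22585455, minus strand), as do BMP2, BMP7, AURKA, TPX2, UBE2C, SALL4 and E2F1.

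When each positive cell was matched to a cell of the same class and the nearest total, 115 genes were at least 2-fold higher and 80 lower. FOXA2 then had a ratio of 1.78, OTX2 2.21, EN1 3.82, SIX3 5.58, SIX6 3.64, SAT1 2.64, RAB3B 2.49, TPBG 2.30, BMP4 2.07 and DKK1 3.36, while PTN was 2.89-fold, FABP7 2.76-fold and SFRP1 1.98-fold lower. Some smaller differences were then within 1.5-fold, among them SALL4 at 1.28 and AURKA at 1.05, and ID2 and ZIC2 stood 1.33-fold and 1.34-fold lower. GDF15, at 1.23, and NCAM1, at 0.924, changed direction. What part the chromosome 20 share plays in the other differences was not tested.

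**Figure D5:**
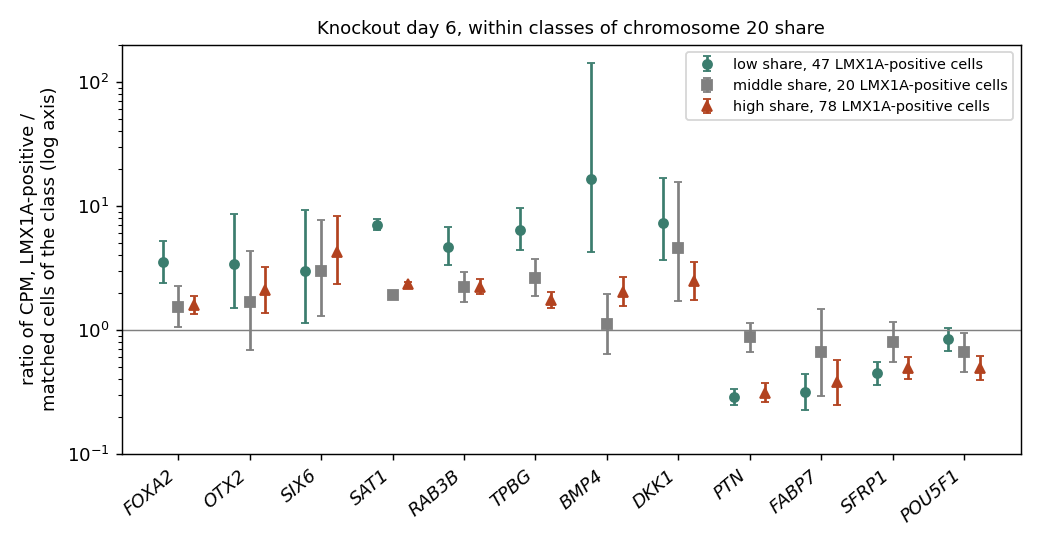
Ratio of CPM in LMX1A-positive cells to matched cells of the same class of chromosome 20 share, knockout day 6, for 12 genes (log axis); circles are 47 cells with a low share, squares 20 with a middle share and triangles 78 with a high share, with exact 95% intervals. FOXA2 was 3.50 in low, 1.53 in middle and 1.58 in high cells.

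Within the classes the 12 genes plotted kept their direction, with sizes that differed. SHISA2, which is not plotted, did not: its ratio was 8.22 in low and 2.72 in high cells, but 0.733 (0.442 to 1.20) in middle cells, from 30 UMIs in the positive cells and 41 in the matched cells. FOXA2 had a ratio of 3.50 (2.40 to 5.22) in low and 1.58 (1.35 to 1.86) in high cells. SAT1 had 7.08 in low, 1.91 in middle and 2.35 in high cells, and BMP4 had 16.5, 1.11 and 2.03. PTN was 3.46-fold, 1.15-fold and 3.20-fold lower, in that order, and POU5F1 1.19-fold, 1.52-fold and 2.02-fold lower. The difference between classes was not tested.

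Since most positive cells held FOXA2, they were also compared with FOXA2-positive cells that lacked an LMX1A UMI, as a comparison added after the data were seen. Here 126 cells with both genes stood against 126 FOXA2-positive cells with the nearest totals, and 143 of 9007 measured genes (1.59%) were at least 2-fold higher and 98 (1.09%) lower. FOXA2 itself was still higher with LMX1A, at 277 CPM in cells with both genes and 169.96 CPM in FOXA2-positive cells without LMX1A, a ratio of 1.63 (1.43 to 1.86). OTX2 had a ratio of 3.44 (2.22 to 5.50), EN1 3.35 (1.92 to 6.15), SIX3 5.81 (3.40 to 10.6) and SIX6 5.94 (3.47 to 10.8). Against all 2002 other FOXA2-positive cells, not matched on totals, these ratios were 2.52, 1.93, 3.71 and 2.38. SAT1 had 5422 CPM in cells with both genes and 2220 CPM in FOXA2-positive cells without LMX1A, a ratio of 2.44 (2.36 to 2.53), and BMP4 a ratio of 2.82 (2.19 to 3.67).

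Among the genes that were lower, PTN was 2.77-fold (2.47 to 3.13), FABP7 2.89-fold (2.21 to 3.82) and CRABP1 2.16-fold (2.01 to 2.31) lower in cells with both genes, and SFRP1 1.86-fold (1.59 to 2.18). SLIT2 had a ratio of 1.29 with matched and 1.16 with all other FOXA2-positive cells. HESX1 had 1.37 (0.812 to 2.34) with matched and 1.91 with all other FOXA2-positive cells. Of the cells with both genes 72 of 126 had a high chromosome 20 share, against 35 of 126 FOXA2-positive cells without LMX1A, and the part of this in the values was not tested. The same comparison in the wild type had 24 cells a set, where 18.6% of measured genes were at least 2-fold higher and 13.9% lower. There PTN was higher with LMX1A, at 2.06 (1.10 to 4.01) with matched and 1.41 with all other FOXA2-positive cells. FABP7 had 4 and 3 UMIs, and CRABP1 was 1.63-fold and SFRP1 1.43-fold lower. The difference between the libraries was not tested.

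The positive cells were not uniform. By detection of FOXA2, EN1 and SIX3 or SIX6, 66 of the 145 cells (45.5%) held FOXA2 alone, 28 FOXA2 with SIX3 or SIX6, 19 FOXA2 with EN1, and 13 all of these. Only 12 (8.28%) held none of them, against 68 of the matched cells. EN1 without FOXA2 was found in 5 positive cells and SIX3 or SIX6 without FOXA2 in 3. Of the 44 cells with SIX3 or SIX6, 26 also held OTX2, so that SIX3 or SIX6 was found in 54.2% of the OTX2-positive members and 18.6% of the members without OTX2. The matched cells without LMX1A went in the same direction, at 22.2% with OTX2, from 4 cells with both, and 7.09% without it. Cells with and without OTX2 were not matched on totals.

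The 44 members with a SIX3 or SIX6 UMI were set against 44 members without one at the nearest totals. At 1.5-fold, 13.8% of 9295 measured genes were higher and 9.82% lower. Members with SIX3 or SIX6 had more DLK1, a Notch family ligand shed from the membrane, at 465 CPM against 57.8 CPM in the members without, a ratio of 8.05 (5.96 to 11.1). They also had more FZD5 (4.99, 2.90 to 9.12), OTX2 (4.88, 2.73 to 9.38) and DKK1 (2.85, 1.94 to 4.28), while POU5F1 was 5.45-fold lower. Over all 145 members, 1 cell held 17.4% of the DLK1 UMIs and 1 cell held 20.2% of the FZD5 UMIs. The same split among cells without LMX1A, 495 against 495, gave 4.95 for DLK1, 5.80 for FZD5, 4.23 for OTX2 and 1.58 for DKK1, and POU5F1 was 3.26-fold lower. These differences were therefore also found outside the LMX1A-positive cells, whose number leaves each value with wide intervals.

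The 19 members without a FOXA2 UMI were set against 19 FOXA2-positive members of like totals, where 24.8% of genes were at least 1.5-fold higher and 22.9% lower, so single values carry little. With FOXA2, SLIT2 had a ratio of 3.62 (2.05 to 6.74) and BMP4 4.12 (1.86 to 10.3), and PTN was 2.84-fold and POU5F1 5.86-fold lower. Among 2002 FOXA2-positive cells and 2002 matched cells without LMX1A, SLIT2 had 2.34 and BMP4 7.30, and PTN was 2.61-fold and POU5F1 1.56-fold lower.

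The number of LMX1A UMIs in a cell, which chose the members, is described here only with levels. FOXA2 stood at 285 CPM in the 15 cells with 2 or more LMX1A UMIs, at 239 CPM in the 130 cells with 1, and at 95.6 CPM in all 4274 cells with none. SAT1 stood at 5772, 5030 and 1646 CPM in that order, OTX2 at 53.6, 45.7 and 13.8 CPM, and SIX6 at 127, 30.2 and 13.7 CPM. PTN stood at 161, 223 and 776 CPM, and POU5F1 at 63.7, 146 and 184 CPM. Cells with 1 LMX1A UMI were nearer to those with more than to those with none for FOXA2, SAT1, OTX2 and PTN, and not for SIX6. For POU5F1 they were nearer to all cells with none, but not to the 145 matched cells with none, at 231 CPM. The 15 cells held 19 UMIs of POU5F1, with an interval of 38.3 to 99.4 CPM.

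The 29 LMX1A-positive cells of the wild type gave the same comparison in the other library. They held a median of 7974 UMIs, the same as their 29 matched cells. With so few cells, 19.7% of 8773 measured genes were at least 2-fold higher and 13.2% lower, so the genes named are those of the knockout comparison and, by rule, the extremes. FOXA2 was found in 24 positive cells and 8 matched cells and had 285 CPM in the positive cells and 66.95 CPM in the matched cells, a ratio of 4.25 (2.44 to 7.85). Against all other wild-type cells, weighted to the same totals, the ratio was 2.83. SAT1 had 5093 CPM in the positive cells and 435 CPM in the matched cells, a ratio of 11.7 (9.57 to 14.4) with matched and 4.77 with all other cells.

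RAB3B, TPBG, BMP4 and SHISA2 were likewise higher in the wild-type positive cells. Their ratios were 4.39, 8.75, 8.83 and 5.50 with matched cells and 4.13, 3.27, 3.33 and 4.66 with all other cells. DKK1 had 21 UMIs in the positive cells and 1 in the matched cells, and 3.86 against all other cells. SFRP1 was 2.41-fold (1.60 to 3.71) and POU5F1 4.47-fold (2.53 to 8.42) lower, and CRABP1 1.49-fold. PTN, lower in the positive cells of the knockout, had a ratio of 1.23 (0.742 to 2.07) with matched and 0.840 with all other cells in the wild type, and FABP7 had 6 UMIs in the positive and 7 in the matched cells. The difference between the libraries in these ratios was not tested.

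At the extremes of the wild-type comparison, ZNF273, JCAD, TSPYL1, LDB2, HOMER1, TMEM190, FBLIM1 and VPS53 had 8 to 11 UMIs in the positive cells and none in the matched cells. VGF, ANXA1, CER1, CST1, AC022140.1 and CDCA7 had 0 in the positive cells. VGF had 69 UMIs in the matched cells, so it was at least 23.0-fold lower with a floor of 3 UMIs over the set. SPP1 had 3 UMIs in the positive cells and 106 in the matched cells. By list, at limits that 31.1% of all measured genes passed upwards and 21.3% downwards, none of 14 pluripotency genes was higher and 6 were lower, and none of 17 p53 targets was higher and 8 were lower. The WNT list had 9 of 15 higher and 3 lower. No anterior forebrain gene was measured, and EN1 was found in 1 positive cell and no matched cell.

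LMX1A-positive cells of the knockout and of the wild type differed in depth, so most genes described here were also compared with each of the 29 wild-type cells set against the nearest knockout member. Over all cells, 1650 of 9106 measured genes (18.1%) were at least 2-fold higher in the knockout and 542 (5.95%) lower, with a median log2 ratio of 0.10. SAT1 and FOXA2, which were high in the positive cells of each library, differed by less than the counting interval. SAT1 had 5121 CPM in the knockout and 5093 CPM in the wild type, a ratio of 1.01 (0.948 to 1.07) and 1.05 with matched depth. Between the cells without LMX1A the SAT1 ratio was 1.64. FOXA2 had a ratio of 0.861 (0.669 to 1.12) and 0.868 with matched depth, and SFRP1 0.935 (0.656 to 1.37) and 1.03. Chromosome 20 class also differed between the libraries and was not matched here. A low share was found in 32.4% of knockout and 0 wild-type members, and in 65.5% and 5.09% of cells without LMX1A. Among knockout cells matched within class, which lacked an LMX1A UMI, SAT1 had 522 CPM in low and 2436 CPM in high cells. BMP4 had 2.65 and 68.3 CPM there, and PTN 1142 and 399 CPM. What part the class plays in these ratios was not tested.

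TPBG, at 1.13 over all cells, was 1.96 (1.47 to 2.65) with matched depth. BMP4 was lower in the knockout members, at 99.99 CPM against 222 CPM in the wild-type members, a ratio of 0.451 (0.334 to 0.619) and 0.540 with matched depth, and the ratio between cells without LMX1A was 0.386. The keratins KRT8, KRT18 and KRT19 had ratios of 0.535, 0.624 and 0.566, and 0.466, 0.634 and 0.705 with matched depth. In the cells without LMX1A each of these keratins was also at least 1.5-fold lower in the knockout. PTN had a ratio of 1.39 (0.997 to 2) in the LMX1A-positive cells, 0.823 (0.499 to 1.35) with matched depth, and 4.35 in the cells without LMX1A. FABP7 had 1.58 (0.700 to 4.41) in the positive cells, 0.923 (0.247 to 3.45) with matched depth from 6 UMIs in each set, and 6.11 in the cells without LMX1A. Each interval in the positive cells included 1, and the direction turned with matched depth. The cells without LMX1A were matched neither on depth nor on chromosome 20 class.

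GBX2 had 65 UMIs in the knockout members and 0 in the wild-type members, so it was at least 2.14-fold higher, and 8 and 0 UMIs with matched depth. L1TD1, a pluripotency gene, had ratios of 8.17 (3.16 to 30.2) and 6.92, and POU5F1 2.16 (1.29 to 3.90) and 1.97. In the cells without LMX1A, not matched on depth, GBX2 and L1TD1 were also at least 1.5-fold higher in the knockout. POU5F1 did not pass 1.5-fold there. After thinning, GBX2 was found in 12.7% of all knockout cells and 2.48% of all wild-type cells at day 6. SIX3 had 95 UMIs in the knockout members and 1 in the wild-type members, SIX6 had 102 and 2, and EN1 had 65 and 1. With matched depth these were 5 and 1, 3 and 2, and 2 and 1 UMIs, too few to show a difference at this depth. In the whole libraries SIX3, SIX6 and EN1 had ratios of 4.31, 8.82 and 5.95 in the knockout relative to the wild type. Among the lowest genes TMBIM4 had 0 UMIs in the knockout members and 7 in the wild-type members, at least 23.6-fold lower, and S100A6 had 1 and 9. By the rule for named genes, TUBB6, C17orf75, FIGNL1, RASSF8, MAPK14, NTS and CENPL were also at 0 in the wild-type members, at least 2.20-fold to 2.76-fold higher in the knockout, and SLFN13, TPM1-AS, MXRA8, EDN1, MYH14 and TMEM190 had 4 to 10 UMIs in the knockout and 5 to 8 in the wild type.

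A difference in cell cycle genes was found over all cells and not at matched depth. Over all cells, each of 25 genes of the G2 and M phase list was at least 1.5-fold higher in the knockout members, where 29.8% of all measured genes were, with a summed level of 4374 CPM in the knockout and 1808 CPM in the wild type. With matched depth 2 of 25 were higher and 8 lower, at 1459.8 CPM in the knockout and 1808 CPM in the wild type. The matching kept only the knockout members nearest in total to the wild-type cells. The level within the knockout itself was therefore 1459.8 CPM instead of 4374 CPM. An effect of depth and a change in the cells compared cannot be told apart here. MKI67 had a ratio of 4.50 (2.61 to 8.51) over all cells and 1.35 (0.632 to 2.97) with matched depth. In the cells without LMX1A, not matched on depth, 10 of 25 were higher, where 17.3% of all measured genes were. Of the S phase list, 11 of 22 were higher over all cells.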

How the data were processed

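Cells were H9 with and without a Sirtuin 1 deletion, 1 library for each genotype and day, grouped by the labels. The deposited values are raw UMI counts per barcode for 36601 features. Per the submitters' processing notes the authors used Cell Ranger 6.1.2, while the deposited matrix header names version 4. No source used here names the annotation version. Libraries held 78917192 and 78774434 (knockout and wild type, day 0) and 68523677 and 54824132 (day 6) UMIs over all barcodes. No column of a sample outside the series was met (0 unmapped).

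Counts were summed over cells and scaled to 1000000. Each member was matched 1 to 1 to the other cell with the nearest total, without replacement. The largest gap was 1904 UMIs and the median gap 2. Ratios have exact conditional binomial intervals, and shares exact (Clopper-Pearson) intervals. Thinning used 4000 UMIs with a fixed seed. A fold against 0 used a floor of 3 counts over the set, and log2 ratios a prior of 0.5. CPM of 3′ tags do not compare levels between genes. The calculation was tested on simulated counts, with cells drawn at random from the pooled profile of a library and known folds added. Simulated cells did not otherwise differ, so the test does not show how the intervals hold where cells vary. Gene positions came from GENCODE 29.

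The members and the 29 gene lists were chosen with earlier results of these data known, and so were the chromosome 20 limits (2.6% and 3%). Named genes were the 15 highest and 10 lowest ratios at 20 CPM or more in the knockout comparison, the 8 highest and 8 lowest in the others, a fixed set of regional genes, and up to 4 genes a list. A few genes and lists that these rules chose are not reported here. DLK1, MT2A and MT1E were chosen after their values were seen. A gene may stand in more than 1 list. Alternatives were other matching, depth, filters and scaling, including TMM from edgeR 4.0.16 (R 4.3.3). Python 3.11.15, numpy 2.4.6, scipy 1.17.1, pandas 2.3.3 and matplotlib 3.10.9 were used.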

Additional observations from a re-analysis of the deposited data

Results flagged for a closer look

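Of 206 genes compared between the libraries, MT1G, a metallothionein, moved in opposite directions in LMX1A-positive cells. In the knockout its ratio to the matched cells was 0.134 (0.0644 to 0.253), from 11 UMIs in the positive cells and 82 in the matched cells. In the wild type it was at least 2.0-fold higher, from 6 UMIs in the positive cells and 0 in the matched cells, with the floor of 3 UMIs over the set. Against all other wild-type cells, weighted to the same totals, the ratio was 0.602. In the 15 knockout cells with at least 2 LMX1A UMIs the ratio was 2.0. The difference between the libraries was not tested.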

How the results depend on the processing

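No paired analysis was possible because each group has 1 library. The thinned LMX1A shares of 1.31% (knockout) and 0.298% (wild type) were 3.28% and 0.540% without thinning and 0.0679% and 0 with at least 2 LMX1A UMIs, and the wild-type share was 0.164% in cells of at least 8000 UMIs. FOXA2 shares of 86.9% in positive and 49.0% in matched cells of the knockout were 100% and 66.7% with at least 2 LMX1A UMIs and 58.6% and 24.1% after thinning, and the matched share was 59.3% within class of chromosome 20.

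Counts past 2-fold in the knockout comparison, 159 higher and 101 lower, moved with the cells compared, the scaling and the filter. They were 1661 and 1235 with at least 2 LMX1A UMIs, 85 and 51 with weighted other cells, 82 and 51 without matching, 96 and 65 with 5 other cells a member (added after seeing the data), 245 and 160 with scaling to totals free of ribosomal protein and mitochondrially encoded genes, 25 and 15 at 50 CPM or more, and 2679 and 2760 at 1 count or more. Without the top 5% of totals 155 were lower. In the wild type, 1726 and 1156, the higher counts were 735 (weighted), 757 (unmatched) and 849 (5 others), the pairs 288 and 191 at 50 CPM and 3710 and 2666 at 1 count, and 2086 were lower with the ribosomal scaling. Higher genes were 59.9% of the calls there, 46.7% under that scaling and 49.4% under TMM. Between knockout and wild-type members, 1650 and 542, 1029 were lower at matched depth and 907 under the ribosomal scaling, and the pairs were 256 and 76 at 50 CPM and 7549 and 1731 at 1 count. No wild-type cell held 2 LMX1A UMIs, so that alternative gave no wild-type value.

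Over 73 named genes and 10 alternatives, 576 of 730 ratios stayed within the interval of the reported value and 146 left it. A reversal was counted only for genes whose reported ratio was past 1.5-fold, and 8 ratios reversed. With at least 2 LMX1A UMIs, in 15 cells, these were MT1G at 2.0, GDF15 at 12.0, AURKA at 0.544, NOTCH2 at 0.833, SUFU at 0.800 and NCAM1 at 0.50, and within class of chromosome 20 GDF15 at 1.23 and NCAM1 at 0.924. The causes were not tested. Most LMX1A calls rest on 1 UMI, so many cells that carry the transcript stand among the others.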

Other observations

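The 37 members with an EN1 UMI held more G2 and M phase transcripts than 37 members without one at like totals. Of 25 genes, 23 were at least 1.5-fold higher, where 13.3% of all measured genes were, with a summed level of 6722 CPM in the EN1-positive and 3191 CPM in the EN1-negative members. The median cell held 3196 CPM with EN1 and 1671 CPM in the matched members without it, and the top EN1-positive cell held 10.4% of the sum. PLK1, a mitotic kinase on chromosome 16, had a ratio of 3.56 (2.17 to 6.07). AURKA, TPX2 and UBE2C, all on chromosome 20, had ratios of 2.86 (2.16 to 3.83), 2.56 (2.16 to 3.06) and 2.55 (2.04 to 3.22). The members with and without EN1 were not matched on chromosome 20 class. Of 23 S phase genes 1 was higher and 6 were lower. Among cells without an LMX1A UMI, 306 EN1-positive against 306 matched cells, 0 of 25 G2 and M phase genes passed 1.5-fold in either direction, at 3837 CPM with EN1 and 4024 CPM without. The difference between these comparisons was not tested.

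MT2A and MT1E, both metallothionein genes and chosen after their values were seen, were lower in members with SIX3 or SIX6. MT2A had 111 UMIs in the 44 members with SIX3 or SIX6 and 1115 in 44 matched members without, where 1 cell held 30.8% of the UMIs. MT1E had 50 UMIs in the members with SIX3 or SIX6 and 474 in the members without, where 1 cell held 34.6%. In cells without LMX1A the same split gave a ratio of 0.904 for MT2A and 1.18 for MT1E.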
